A study of Mus musculus with 6 samples.

Results

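Leukocytes adhere through a small set of receptor families. This account covers the integrins, selectins, cadherins and the ICAM and VCAM proteins of mouse cells sorted as macrophages. Members were taken by gene symbol alone: the integrin alpha and beta chains, the 3 selectins, the numbered ICAM genes with Vcam1, and the numbered classical and related cadherins. The rule found 57 genes among the 23946 measured, namely 5 beta2 integrin chains, 14 other integrin alpha chains, 7 other integrin beta chains, 3 selectins, 5 ICAM and VCAM genes and 23 cadherins.

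RNA came from cells sorted as CD45+CD11b+F4/80+ from omentum, abbreviated OM, and from mesenteric fat, abbreviated MY, of C57BL/6 mice, and the animals of the study were females of 6 to 8 weeks. Naive mice (labelled normal) were compared with mice taken 24 h or 7 d after an intraperitoneal injection of ID8 cells, a mouse ovarian carcinoma line, of which 1000000 were injected. The labels name no other treatment and no allele. The 9 mice were processed as 3 groups of 3, whose cells gave 1 library for each tissue, and whether both tissues of a time point came from the same mice is not given in the sources used here. There was 1 library for each tissue and time point, 6 in all, so no value has a replicate check and no p-value is given. Values are FPKM, fragment counts scaled by transcript length and by the size of the library, and 3 values in a row always stand for the naive, 24 h and 7 d libraries in that order. Differences are between values of log2(FPKM + 1), so those of weakly expressed genes come out smaller than the ratio of their FPKM. "Rose", "fell" and "apart" are used only for a difference of at least 2-fold (1 on this scale) between the libraries named.

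Integrins are pairs of an alpha and a beta chain. Beta2 integrins are carried by leukocytes and bind ICAM proteins and complement fragments, beta1 integrins mainly bind matrix proteins, beta7 integrins serve lymphocyte homing to mucosa, and the alpha-v integrins, among them alpha-v beta5, bind vitronectin and other ligands with an RGD motif. Selectins slow leukocytes on vessel walls by binding sugars, and the ICAM and VCAM proteins are the vessel and stromal partners of leukocyte integrins. Cadherins join cells of one type to each other through catenins. The milky spots of the omentum are leukocyte clusters under a gap in the mesothelium, a tissue with all of these contacts.

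Markers of macrophages and of other cells were both detected in the sorted libraries. All 8 macrophage markers reached an FPKM of 1 in each library, and their sum was 573, 2362 and 448 in the omentum and 307, 714 and 424 in the mesentery. Emr1, the gene of the sort marker F4/80, had 27.4, 135 and 26.5 in the omentum and 20.5, 68.6 and 37.5 in the mesentery, and Ptprc, the gene of CD45, 182, 106 and 124 in the omentum and 188, 158 and 208 in the mesentery. The 7 B cell markers, all present in each library, summed to 959 to 4249 in the omentum and 576 to 1661 in the mesentery. The 7 neutrophil markers, likewise all present, summed to 5932 to 14615 in the omentum and 242 to 683 in the mesentery. S100a8 and S100a9 made up most of each omental neutrophil sum. These genes, Retnlg, Mmp9 and Mmp8 were each at least 2-fold higher in OM naive than in MY naive. Csf3r and Cxcr2 were nearly level, at 6.21 and 5.14 in OM naive and 5.99 and 4.56 in MY naive. Cxcr2 was lower in OM 7d, at 3.43, than in MY 7d, at 4.20. The 7 NK cell markers summed to 19.8 to 429 in the omentum and 1200.1 to 2578 in the mesentery (3 of 7 at an FPKM of at least 1 in OM 24h and 7 of 7 elsewhere) and the 8 T cell markers to 28.9 to 144 in the omentum and 740.0 to 1495 in the mesentery (6 of 8 in OM 24h). The 7 fibroblast markers reached an FPKM of 1 in 5 to 7 cases in the omental libraries and in 1 case in each mesenteric one. The 8 mesothelial and epithelial markers did so in 8 cases in each omental and 1 in each mesenteric library. That 1 was Epcam, at 6.88, 9.09 and 7.72, most of the sum of this list in each mesenteric library. The mesenteric order of this sum is therefore mainly that of Epcam. In the omentum Epcam had 13, 5.45 and 9.44, lowest in OM 24h, where the sum of the list was highest. In bulk RNA, fewer cells of a type and less RNA per cell cannot be told apart. The relative depth estimated from low values ran from 0.859 (OM naive) to 1.485 (OM 7d) times that of MY naive. Some exact zeros of the table may be failed estimates, since Cd74 was listed at 0 in OM 24h and at 11323 or more in the other 5 libraries, so a value of 0 is given only as listed at 0.

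Of the 57 genes, 35 reached an FPKM of 1 in some library and are called expressed, and 20 reached an FPKM of 10. The 22 others comprised 16 cadherins, Itga10, Itga11, Itgad, Itgb6, Itgb8 and Sele. Cdh7 and Cdh16 were listed at 0 in all 6 libraries. Sele, the endothelial selectin induced by inflammation, had 0 to 0.105, and Cdh5, the cadherin of endothelial junctions, had 0.151 to 0.383. Itga11, a collagen receptor chain of fibroblasts, had 0.189, 0.475 and 0.82 in the omentum and 0, 0.00535 and 0.0251 in the mesentery. Itgb8 had 0.0607 to 0.809 and Itgad 0.00777 to 0.723. The other cadherins below the filter lay between a listed 0 and 0.761, the highest being Cdh24 in MY naive.

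Integrin beta chains and the beta2 alpha chains made up most of the adhesion receptor RNA. In FPKM summed over the 57 genes, the 5 beta2 integrin chains held 27.7% (MY 7d) to 42.1% (OM 24h), and the other beta chains held 24.4% (MY 24h) to 42.7% (OM naive). The share of the other alpha chains was 3.48%, 8.46% and 7.82% in the omentum and 5.06%, 4.995% and 5.27% in the mesentery. ICAM and VCAM genes held 11.0% to 13.3% in the omentum and 17.0% to 25.8% in the mesentery. Cadherins held at most 4.13%, in OM 7d.

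Sequence is shown for 2 members, Itgb5, which had the largest difference of the family, and Itgam, the gene of the CD11b sort marker. Both stretches are the 250 bases before the RefSeq start site on GRCm38.p6, a later build than that of the expression table, and are written 5′ to 3′ on the plus strand. That of Itgb5 spans chr16:33829415-33829664 and that of Itgam chr7:128062390-128062639. Capitals mark GAGGAA on either strand, the core bound by the myeloid factor PU.1.
Itgb5: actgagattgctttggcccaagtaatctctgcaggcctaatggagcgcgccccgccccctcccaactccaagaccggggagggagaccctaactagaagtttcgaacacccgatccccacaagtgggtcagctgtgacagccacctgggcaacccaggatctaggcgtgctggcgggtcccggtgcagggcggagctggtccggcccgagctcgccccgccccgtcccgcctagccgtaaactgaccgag
Itgam: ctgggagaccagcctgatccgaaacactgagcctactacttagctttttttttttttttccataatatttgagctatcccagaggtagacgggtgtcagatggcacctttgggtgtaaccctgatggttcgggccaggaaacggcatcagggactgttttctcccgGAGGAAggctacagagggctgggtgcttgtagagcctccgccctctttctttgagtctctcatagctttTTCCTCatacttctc
The Itgam stretch holds the core at 2 places, which begin 84 and 15 bases before the start site, and the Itgb5 stretch holds none. Of all 32851 RefSeq promoters 23.3% hold it, and among the 20 promoters found for 19 of the 35 expressed members 7 do, those of Cdh22, Itga2b, Itga3, Itga5, Itgam, Itgav and Itgb1. The AP-1 motif TGANTCA, also searched on both strands, is in 6.75% of all promoters and in those of Itgax and Selp, and the kappa B motif is in 4.78% and in that of Cdh22. These matches are descriptions of the letters only.

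The question the design poses first is how cells sorted as macrophages from the naive omentum differ from those of the naive mesentery. Both libraries also hold RNA of other cells, as given above. Of the 35 expressed members, 4 were higher in OM naive (Cdh11, Cdh17, Itgam and Itgb1), beside 8.18% of all 13064 expressed genes, and 6 were lower (Cdh22, Icam5, Itga2, Itgae, Itgb3 and Vcam1), beside 8.05%. The median difference of the 35 was -0.09, against 0.01 for all expressed genes. The largest differences were those of Cdh17 (2.95), Itgae (-2.56) and Vcam1 (-2.3). Itga3, at 0.9997, lay just under the 2-fold line.

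The comparisons of ID8-injected with naive mice gave 20 members apart at 24 h and 11 at 7 d in the omentum, and 1 and 2 in the mesentery. In OM 24h against OM naive 13 members rose, beside 11.9% of all genes, and 7 fell, beside 6.45%, with a median of 0.31 for the members and 0 for all genes. In OM 7d against OM naive 10 rose, beside 11.0%, and 1 fell, beside 1.96%, with medians of 0.30 and 0.00. In MY 24h against MY naive only Vcam1 rose among the 35, beside 2.80% of all genes, and no member fell, beside 1.52%. In MY 7d against MY naive Cdh17 rose, beside 0.498%, and Itga2 fell, beside 2.29%. Rescaling each library to the same sum made that 1 up and 2 down, Icam5 being added. Both omental comparisons share the naive library, as do both mesenteric ones. Whether the omental and mesenteric changes differ was not tested.

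Low genes weigh on these counts, since a member that passed the filter only through the library where it is high had to differ. Among the 18 members that reached an FPKM of 1 in all 6 libraries, 6 rose in OM 24h (Itga5, Itga6, Itgae, Itgav, Itgb5 and Vcam1), beside 8.68% of the 9926 such genes. As many fell, beside 5.66%, among them Cdh17, Icam2, Itga4, Itgb1 and Itgb7. In OM 7d 4 of the 18 rose, beside 4.75%, and 1 fell, beside 1.59%, and their median was -0.07, as was that of the 9926 genes. Rescaling each library to the same sum moved the median of all expressed genes to -0.17 in OM 24h against OM naive, to 0.12 in OM 7d against OM naive and to -0.19 in OM naive against MY naive. After that rescaling 12 members rose and 9 fell in OM 24h.

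**Figure D1:**
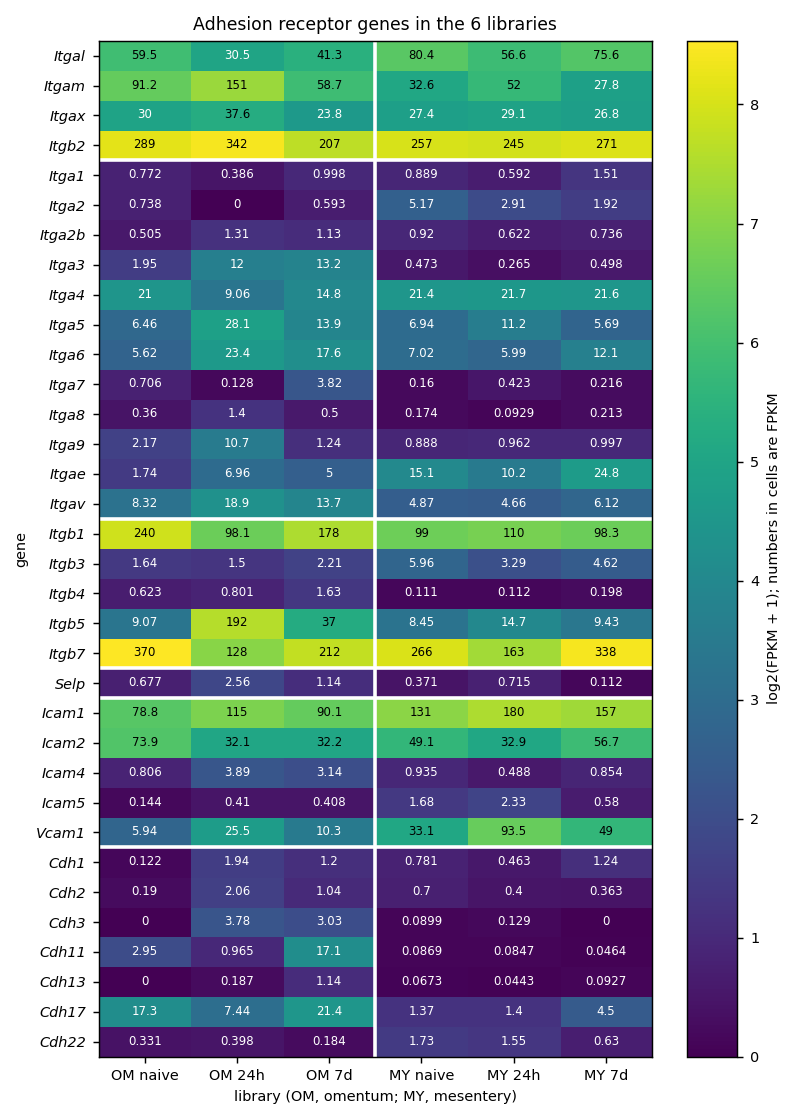
FPKM of the expressed members described here (rows, grouped by subfamily) in the 6 libraries (columns), coloured by log2(FPKM + 1) with the FPKM printed in each cell. Itgb5 stands at 192 in OM 24h and at 37.0 or less elsewhere, and Vcam1 is higher in each mesenteric than in each omental library.

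The beta2 integrins are the leukocyte integrins proper. Itgb2, which encodes the shared beta chain CD18, had 289, 342 and 207 in the omentum and 257, 245 and 271 in the mesentery. It varied by less than 2-fold over all 6 libraries. Itgam encodes CD11b, the alpha chain of the complement receptor Mac-1, and is one of the genes of the sort gate. Its FPKM was 91.2, 151 and 58.7 in the omentum and 32.6, 52 and 27.8 in the mesentery, with each omental value above each mesenteric one. The difference between tissues was 1.46 in the naive libraries, 1.52 at 24 h and 1.05 at 7 d. Neutrophils carry Itgam as well, and the 7 neutrophil markers summed to 5932, 13820.4 and 14615 in the omentum and 628, 683 and 242 in the mesentery. The 6 monocyte markers summed to 1798, 1951 and 2378 in the omentum and 491, 400 and 481 in the mesentery. Of these only Ly6c2 was lower in OM naive than in MY naive. Within the omentum Itgam ran in the order of the macrophage sum and not of the neutrophil sum, which was mostly S100a8 and S100a9. Of the other neutrophil markers, Cxcr2, Mmp9 and Mmp8 ran in the order of Itgam there, and Csf3r and Retnlg did not. Within the mesentery Itgam ran in the order of the neutrophil sum and not of the macrophage sum. It ran in the order of the monocyte markers in neither tissue. Whether any of these cells contributed to the Itgam values was not tested. Itgal encodes CD11a, the alpha chain of LFA-1 that T cells and other leukocytes carry. It had 59.5, 30.5 and 41.3 in the omentum and 80.4, 56.6 and 75.6 in the mesentery, and was lowest in OM 24h.

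Itgam thus stood at 1.53, 4.95 and 1.42 times Itgal in the omentum and at 0.406, 0.919 and 0.368 times in the mesentery. Itgax, the gene of CD11c, had 30.05, 37.6 and 23.8 in the omentum and 27.4, 29.1 and 26.8 in the mesentery and differed from the naive library of its tissue by -0.33 (OM 7d) to 0.31 (OM 24h). No member of the beta2 group was 2-fold apart from the naive library of its tissue, at either time. Itgal came nearest, at -0.94 in OM 24h, and passed the line there after rescaling to the same sum, at -1.15. The median of the 4 expressed chains was 0.28 in OM 24h and -0.50 in OM 7d, each against OM naive. Itgam, Itgax and Itgad are neighbours on the plus strand of chromosome 7 of the mm9 assembly, at 135206154 to 135271674, 135273061 to 135294171 and 135297890 to 135349015. Their FPKM are nevertheless unalike, since Itgad stayed under 0.724. Itgb2l, a gene related to Itgb2 that the rule does not take and that was looked at after the values were known, had 8.57, 20.1 and 16.5 in the omentum and 0.97, 0.48 and 0.109 in the mesentery.

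Itgb1 encodes the beta chain shared by most matrix-binding integrins. Its FPKM was 240.2, 98.1 and 178 in the omentum and 99, 110.3 and 98.3 in the mesentery. The naive omentum was the highest of the 6 libraries, 1.27 above the naive mesentery, and OM 24h was level with the mesenteric libraries at -1.28 against OM naive. The mesenteric values stayed within 0.15 of their naive level. The alpha chains that can pair with it went the other way in sum. Over the 12 such chains the summed FPKM was 48.3, 104.5 and 81.3 in the omentum and 48.2, 48.9 and 50.8 in the mesentery.

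Itga5 encodes the alpha chain of the fibronectin receptor. It had 6.46, 28.1 and 13.9 in the omentum and 6.94, 11.2 and 5.69 in the mesentery, a rise of 1.96 in OM 24h and of 1.0005 in OM 7d, the latter just at the 2-fold line. Itga6 forms laminin receptors and had 5.62, 23.4 and 17.6 in the omentum and 7.02, 5.99 and 12.1 in the mesentery, with rises of 1.88 and 1.49 in the omentum. In the mesentery its highest value was at 7 d. Itgav, the shared chain of the vitronectin receptors, had 8.32, 18.9 and 13.7 in the omentum and 4.87, 4.66 and 6.12 in the mesentery. Each omental value was above each mesenteric one, and the rise in OM 24h was 1.09 as deposited and 0.93 after rescaling to the same sum. Itga5, Itga6 and Itgav ran in the order of the mesothelial and epithelial markers within the omentum and not within the mesentery. The part of these markers in their values was not tested.

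Itga3, which forms a laminin receptor of epithelia, stood at 1.95, 12 and 13.2 in the omentum and 0.473, 0.265 and 0.498 in the mesentery. It rose by 2.14 in OM 24h and 2.27 in OM 7d. The tissues were 3.36 apart at 24 h and 3.24 at 7 d. The 8 mesothelial and epithelial markers summed to 105, 992 and 978 in the omentum and 7.8, 10.2 and 8.91 in the mesentery in the same libraries, with Wt1 listed at 0 in MY naive and MY 7d and Lrrn4 in MY 24h. The list includes Krt8 and Krt18, whose proteins the paper stained to find ID8 cells in the omentum. Whether mesothelial cells or ID8 cells contributed to the Itga3 values was not tested.

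Itga9, a receptor chain for tenascin and osteopontin, had 2.17, 10.7 and 1.24 in the omentum and 0.888, 0.962 and 0.997 in the mesentery. OM 24h was the highest library by a wide margin, at 1.88 above OM naive, and OM 7d stood at -0.50 against OM naive. The macrophage markers ran in the same order within the omentum. They did not within the mesentery, where they summed to 307, 714 and 424. Their part in the Itga9 values was not tested. Itga4, which pairs with the beta1 or beta7 chain and binds VCAM1, had 21, 9.06 and 14.8 in the omentum and 21.4, 21.7 and 21.6 in the mesentery. Its mesenteric values were almost level, and in OM 24h it fell by 1.13. Itga7, a laminin receptor of muscle, had 0.706, 0.128 and 3.82 in the omentum and 0.16, 0.423 and 0.216 in the mesentery. It rose by 1.5 in OM 7d, a difference that was 0.63 with a pseudocount of 5. Fibroblast markers were highest in the same library, as given for Cdh11 below. The rest were low: Itga1 had 0.386 to 1.51, Itga8 0.0929 to 1.4 and Itga2b, the platelet chain, 0.505 to 1.31. Over the 12 expressed alpha chains outside the beta2 group, 6 rose and 1 fell in OM 24h, beside 11.9% and 6.45% of all genes, and 5 rose and none fell in OM 7d, beside 11.0% and 1.96%. Their medians were 0.96 and 0.58.

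Annotated genes overlap some of these chains, and the strand of the libraries is not given in the sources used here. Itga1 holds Pelo on its own strand, and Itga4, Itgae and Itga7 overlap Cerkl, Gsg2 and Mettl7b on the other strand. Reads of the overlapping genes cannot be told apart in those stretches.

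Itga2 encodes CD49b, a collagen receptor chain that is also a standard marker of mouse NK cells. Its FPKM was 0.738, 0 and 0.593 in the omentum and 5.17, 2.91 and 1.92 in the mesentery, where the 24 h omental value is a listed 0. Every mesenteric value exceeded every omental one, with -1.83 for OM naive against MY naive, and MY 7d fell by 1.08 from MY naive. The 7 NK cell markers summed to 429, 19.8 and 236 in the omentum and 2578, 1568 and 1200.1 in the mesentery, which is the same order over all 6 libraries as that of Itga2. Their part in the Itga2 values was not tested. Itgae encodes CD103, the chain of alphaE beta7 on intraepithelial T cells and some dendritic cells, and had 1.74, 6.96 and 5.0 in the omentum and 15.1, 10.2 and 24.8 in the mesentery. It was -2.56 in OM naive against MY naive and rose within the omentum by 1.54 at 24 h and 1.13 at 7 d. With a pseudocount of 5 those differences from naive were 0.83 and 0.57. Every mesenteric value of Itgae stayed above every omental one. The 8 T cell markers summed to 144, 28.9 and 137 in the omentum and 1230, 740.0 and 1495 in the mesentery. Within the mesentery this is the order of Itgae, and within the omentum it is not. Their part in the Itgae values was not tested.

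Itgb5 gave the largest difference of the 35 members in any comparison with a naive library. Its FPKM was 9.07, 192 and 37 in the omentum and 8.45, 14.7 and 9.43 in the mesentery. The rise in OM 24h was 4.26, 21.1 times the naive FPKM, and in OM 7d 1.91. The difference between the tissues was 0.09 in the naive libraries and 3.61 at 24 h. In MY 24h the difference from MY naive was 0.73, under 2-fold. Its alpha partner Itgav rose less, so that Itgav stood at 0.917, 0.0985 and 0.371 times Itgb5 in the omentum. In OM 24h Itgb5 was 1.95 times Itgb1, and in the other libraries 0.0378 to 0.208 times. The 8 macrophage markers were also highest in OM 24h, at a sum of 2362 against 573 in OM naive. Within the omentum their order differs from that of Itgb5, as the macrophage sum was lower in OM 7d than in OM naive and Itgb5 was higher. Within the mesentery both ran in the same order, the macrophage sum at 307, 714 and 424. The mesothelial and epithelial markers summed to 105, 992 and 978 in the omentum and 7.8, 10.2 and 8.91 in the mesentery. Within each tissue this is the order of Itgb5, and over all 6 libraries it is not. Most of each mesenteric sum was Epcam, which in the omentum was lowest in OM 24h. The part of either marker list in the Itgb5 rise was not tested. Itgb5 is on the plus strand of chromosome 16 of mm9, at 33829751 to 33949239.

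Itgb7 was among the most abundant members, at 370.1, 128 and 212 in the omentum and 266, 163 and 338 in the mesentery. It fell by 1.52 in OM 24h, and the 24 h library was the lowest in the mesentery too. Its FPKM was 1.19 to 1.54 times that of Itgb1 in the omentum and 1.47 to 3.44 times in the mesentery, while Itga4 stood at 0.0568 to 0.134 times Itgb7. The B cell markers summed to 4249, 959 and 2613 in the omentum and 873, 576 and 1661 in the mesentery. Within each tissue this is the order of Itgb7, and over all 6 libraries it is not. Their part in the Itgb7 values was not tested.

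Itgb3, the partner of Itgav and Itga2b, had 1.64, 1.5 and 2.21 in the omentum and 5.96, 3.29 and 4.62 in the mesentery and was -1.4 in OM naive against MY naive. Each mesenteric value was above each omental one. Of the 8 platelet markers Ppbp, Gp9, Gp1ba, Gp6, Tubb1 and Treml1 stayed below 1 in all libraries. Pf4 had 167, 601 and 25.8 in the omentum and 2.79, 23.9 and 1.52 in the mesentery. Gp1bb had 0.784, 0 and 0.392 in the omentum, the 0 as listed, and 1.99, 2.07 and 0.934 in the mesentery. The part of platelets in the Itgb3 values was not tested. Itgb4, the hemidesmosome chain that pairs with Itga6, had 0.111 to 1.63, each omental value above each mesenteric one.

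**Figure D2:**
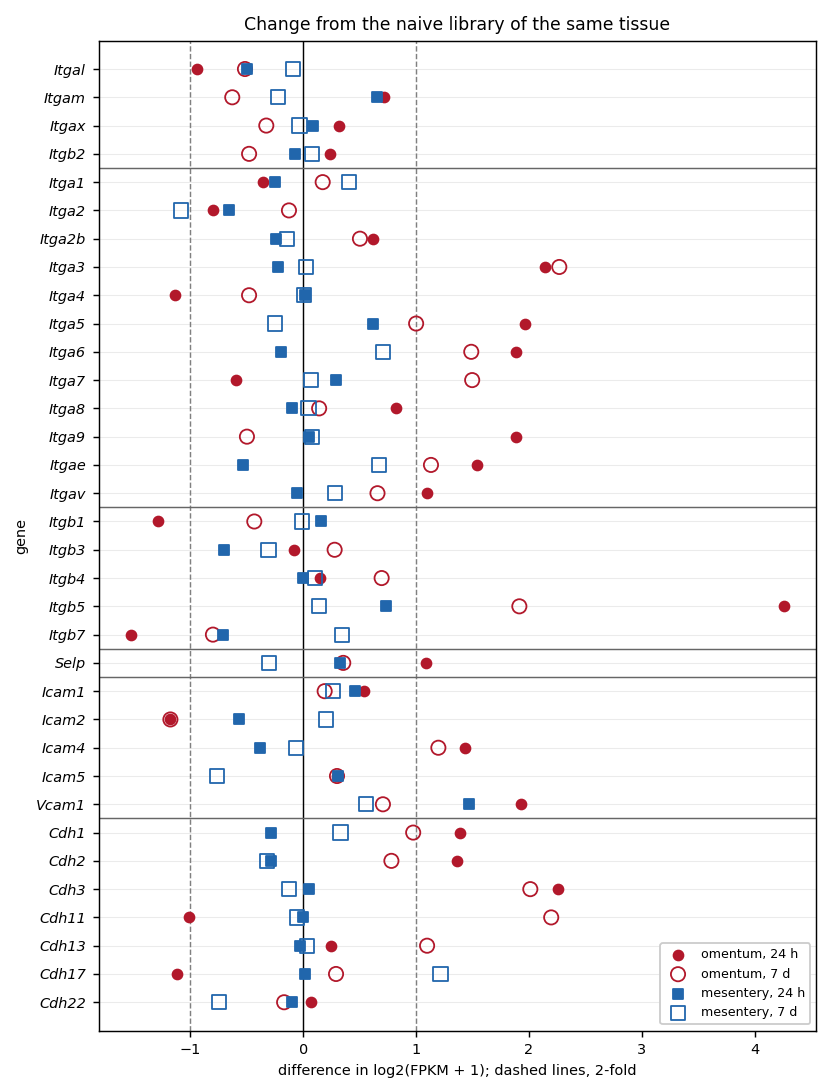
Difference in log2(FPKM + 1) of the expressed members described here from the naive library of the same tissue (horizontal axis), with circles for the omentum and squares for the mesentery, filled at 24 h and open at 7 d, 1 library per point. Dashed lines mark 2-fold, and Itgb5 in OM 24h lies farthest from 0, at 4.26.

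Selp, the selectin of platelets and endothelium, had 0.677, 2.56 and 1.14 in the omentum and 0.371, 0.715 and 0.112 in the mesentery and rose by 1.08 in OM 24h. With a pseudocount of 5 that difference was 0.41. The 8 endothelial markers summed to 45.1, 10.4 and 38.2 in the omentum and 39.5, 51.6 and 50.2 in the mesentery. Most of each sum was Pecam1, at 37.8, 8.85 and 23.9 in the omentum and 31.8, 43.5 and 45.2 in the mesentery. In OM 24h only 1 of the 8 reached an FPKM of 1, and Tek, Emcn and Cldn5 were listed at 0. The part of endothelial cells in the Selp values was not tested.

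Among the ligand genes of selectins the naive tissues differed in both directions. Of 15 genes for selectin ligands and their synthesis, all expressed, 3 were higher and 3 lower in OM naive than in MY naive, beside 8.18% and 8.05% of all genes, with a median of -0.01. Cd34, a sialomucin, stood at 12.3, 5.42 and 51.4 in the omentum and 0.365, 1.69 and 0.721 in the mesentery, and Cd44, the hyaluronan receptor, at 92.7, 81.8 and 56.5 in the omentum and 38.7, 49.6 and 45.4 in the mesentery. Glycam1, a mucin of the high endothelial venules of lymph nodes, stood at 0.177, 0 and 0 in the omentum and 15.4, 55.1 and 6.8 in the mesentery, and the fucosyltransferase gene Fut4 at 5.09, 5.55 and 7.0 in the omentum and 15.9, 25.9 and 18.2 in the mesentery. Of the 15, 4 rose and 2 fell in OM 24h, beside 11.9% and 6.45%, and 3 rose and 1 fell in OM 7d, beside 11.0% and 1.96%. Podxl, a sialomucin that mesothelium and podocytes make, rose at both times, with 1.4, 20.5 and 45 in the omentum and 0.038, 0.0133 and 0.017 in the mesentery, and Gcnt1, which builds core 2 O-glycans, rose by 1.3 in OM 24h. Spn, the leukocyte sialomucin CD43, had 21.4, 7.2 and 9.98 in the omentum and 38.7, 15 and 20 in the mesentery. It fell by 1.45 in OM 24h, by 1.03 in OM 7d and by 1.32 in MY 24h, and was at -0.92 in MY 7d. Cd34 fell by 1.05 in OM 24h. In MY 24h 2 of the 15 rose and 1 fell, beside 2.80% and 1.52% of all genes. Selplg, the main leukocyte ligand of P-selectin, was outside the genes chosen by rank and had 182, 187 and 133 in the omentum and 350.2, 347 and 402 in the mesentery.

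Vcam1 encodes the stromal and endothelial ligand of alpha4 integrins, which some tissue macrophages also carry. Its FPKM was 5.94, 25.5 and 10.3 in the omentum and 33.1, 93.5 and 49 in the mesentery. Each mesenteric library was above each omental one, with differences of -2.3, -1.83 and -2.14 for omentum against mesentery at the 3 times. Vcam1 was the one expressed member that rose at 24 h in both tissues, by 1.93 in the omentum and 1.47 in the mesentery. At 7 d the difference from naive was 0.71 and 0.55, under 2-fold in each. The lymph node genes Glycam1 and Madcam1 were highest in MY 24h as well, Madcam1 at 0.12, 0 and 0.487 in the omentum and 1.34, 5.33 and 1.76 in the mesentery. The dendritic cell markers summed to 474, 265 and 271 in the omentum and 679, 981 and 794 in the mesentery. They ran in the order of Vcam1 within the mesentery and not within the omentum. Ccr7 made up most of each mesenteric sum. Zbtb46, Xcr1 and Cd209a were higher in OM naive than in MY naive, and the other markers of that list were lower. The macrophage markers also ran in the order of Vcam1 within the mesentery only. The mesothelial and epithelial markers did so within each tissue, with higher sums in the omentum. The part of these genes and lists in the Vcam1 values was not tested.

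Icam1, the inducible ligand of LFA-1 and Mac-1, had 78.8, 115 and 90.1 in the omentum and 131, 179.6 and 157 in the mesentery. No omental value reached a mesenteric one, though no difference between the tissues at the same time, or from naive within a tissue, was 2-fold. Icam2, a constitutive LFA-1 ligand, had 73.9, 32.1 and 32.2 in the omentum and 49.1, 32.9 and 56.7 in the mesentery and fell by 1.18 in OM 24h and fell by 1.18 in OM 7d, each against OM naive. Within each tissue this is the order of the B cell markers too, whose part in it was not tested. The red cell protein gene Icam4 rose at both times in the omentum, with 0.806, 3.89 and 3.14 in the omentum and 0.935, 0.488 and 0.854 in the mesentery. These values are low, and with a pseudocount of 5 the omental differences from naive were 0.61 and 0.49. Icam4 ran in the order of the mesothelial and epithelial markers within the omentum and not within the mesentery, and their part was not tested. Icam5, first known from neurons, had 0.144, 0.41 and 0.408 in the omentum and 1.68, 2.33 and 0.58 in the mesentery. Icam1, Icam4 and Icam5 follow each other on the plus strand of chromosome 9 of mm9, from 20820404 to 20843480, and OM naive against MY naive gave -0.72, -0.10 and -1.23 for the 3.

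**Figure D3:**
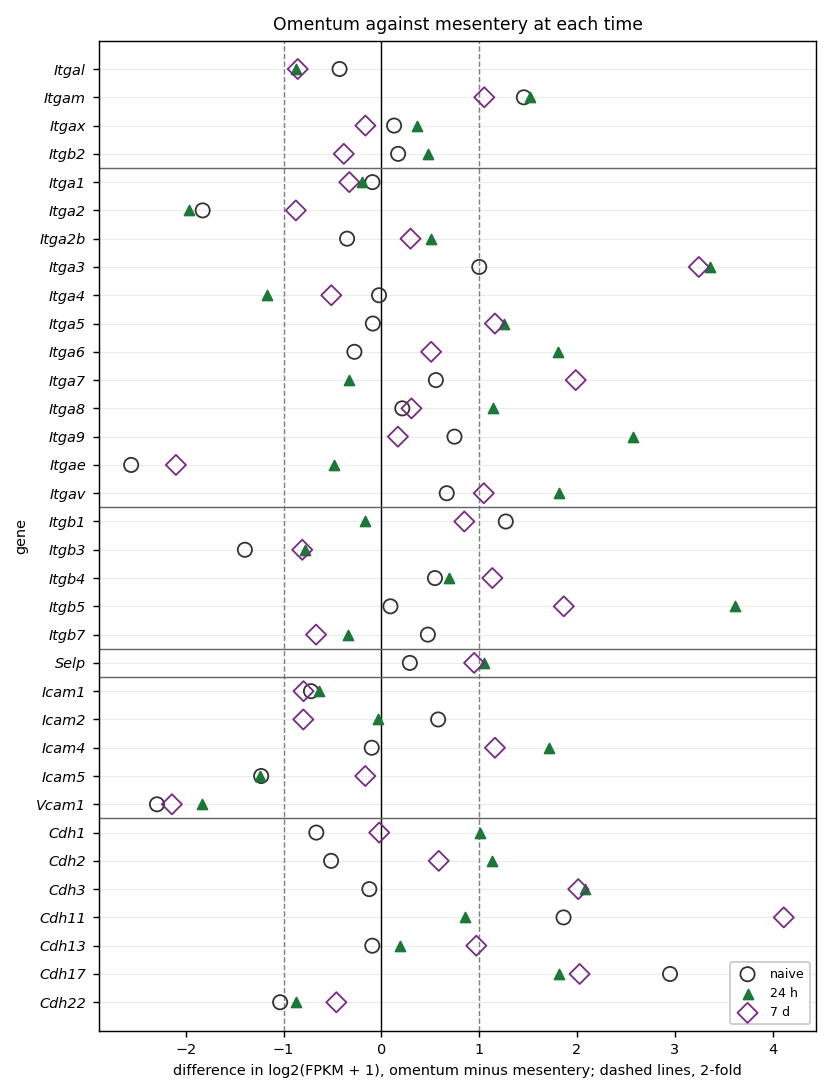
Difference in log2(FPKM + 1) between the omental and the mesenteric library of the same time (horizontal axis) for the expressed members described here, with circles for naive, triangles for 24 h and diamonds for 7 d, 1 pair of libraries per point. Dashed lines mark 2-fold. Vcam1 lies below -1 and Itgam above 1 at all 3 times.

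Only 7 of the 23 cadherins were expressed, and just Cdh11 and Cdh17 reached an FPKM of 10. Cdh11, the cadherin of fibroblasts and other mesenchymal cells, had 2.95, 0.965 and 17.1 in the omentum and 0.0869, 0.0847 and 0.0464 in the mesentery. It was 1.86 higher in OM naive than in MY naive, fell by 1.01 in OM 24h and rose by 2.2 in OM 7d. The 7 fibroblast markers summed to 346, 222 and 1194 in the omentum and 2.34, 3.55 and 2.64 in the mesentery, in the same order within the omentum as Cdh11, and all 7 reached an FPKM of 1 in OM 7d. Only Dcn did so in the mesentery, where Pdgfra was listed at 0 in MY 24h. What part they had in the Cdh11 values was not tested.

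Cdh17, the liver-intestine cadherin, had 17.3, 7.44 and 21.4 in the omentum and 1.37, 1.4 and 4.5 in the mesentery. Every omental value was above every mesenteric one, and it was the one member that rose in MY 7d, by 1.22. In OM 24h it fell by 1.12. Cdh3, the P-cadherin of epithelia, had 0, 3.78 and 3.03 in the omentum and 0.0899, 0.129 and 0 in the mesentery, both zeros as listed. The mesothelial and epithelial markers ran in the same order within the omentum and not within the mesentery, and whether they contributed to Cdh3 was not tested. Its neighbour on chromosome 8, Cdh1, encodes E-cadherin and had 0.122, 1.94 and 1.2 in the omentum and 0.781, 0.463 and 1.24 in the mesentery, a rise of 1.39 in OM 24h from the lowest of the 6 values. Cdh2, which encodes N-cadherin, had 0.19, 2.06 and 1.04 in the omentum and 0.70, 0.40 and 0.363 in the mesentery and rose by 1.36 in OM 24h. Cdh13, a cadherin held by a lipid anchor, had 0, 0.187 and 1.14 in the omentum and 0.0673, 0.0443 and 0.0927 in the mesentery, the 0 as listed. Cdh22 was the one expressed cadherin with every mesenteric value above every omental one, at 0.331, 0.398 and 0.184 in the omentum and 1.73, 1.55 and 0.63 in the mesentery. Cdh1 and Cdh2 also ran in the order of the mesothelial and epithelial markers within the omentum and not within the mesentery. The part of these markers in the Cdh1 and Cdh2 values was not tested. Cdh1, Cdh2, Cdh3, Cdh13 and Cdh22 stayed below 4 in all 6 libraries, so their folds rest on low values.

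**Figure D4:**
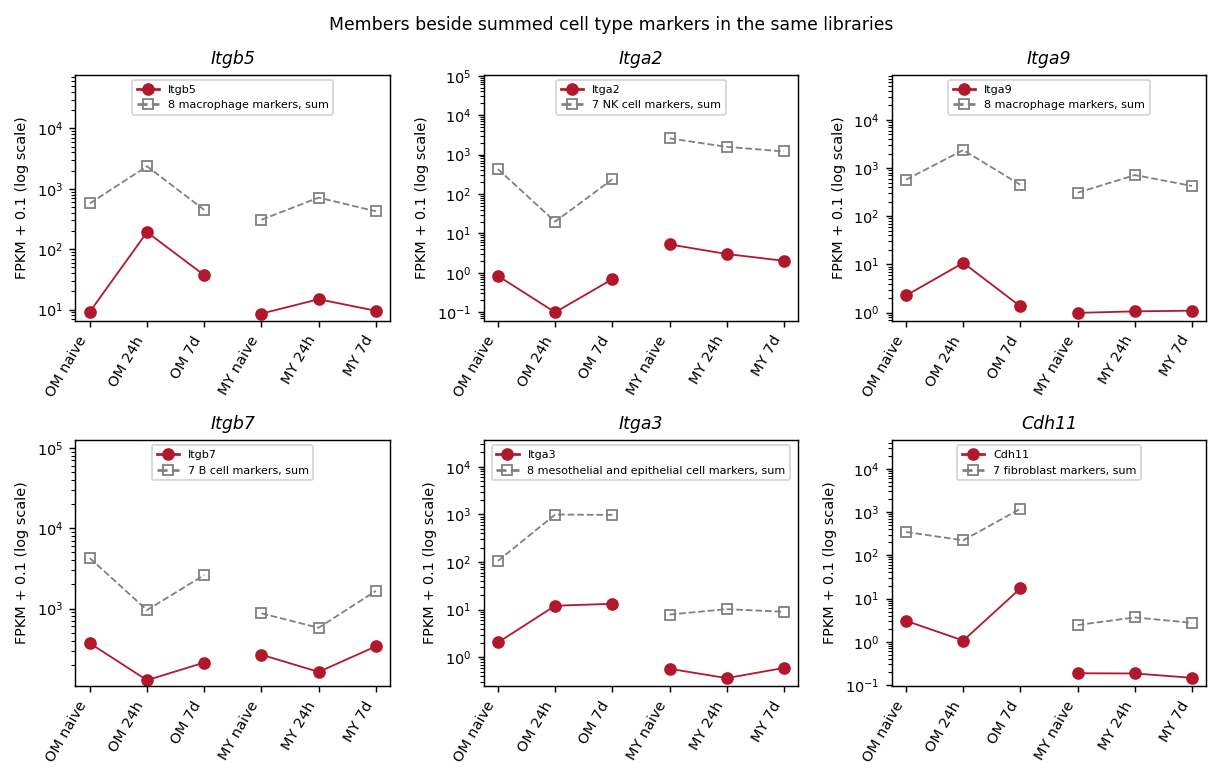
FPKM of 6 members (filled circles) and the summed FPKM of a list of cell type markers (open squares) in the 6 libraries, as FPKM + 0.1 on a log axis, with lines joining the libraries of a tissue in order of time. Itga2 and the NK cell sum run in the same order over all 6 libraries.

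Over all 3 times the values of some members did not overlap between the tissues. In 8 of the 35 members every omental library was above every mesenteric one, beside 16.7% of all expressed genes, namely Cdh11, Cdh17, Itga3, Itga8, Itga9, Itgam, Itgav and Itgb4. In 9 it was the reverse, beside 17.7%, among them Cdh22, Icam1, Icam5, Itga2, Itga4, Itgae, Itgb3 and Vcam1. A gap of at least 2-fold between the tissues at all times was met by 0 of the 35, beside 2.73% of all genes toward the omentum and 2.12% toward the mesentery. The nearest were Itga3, with a gap of 0.98, and Cdh11, with 0.85, and toward the mesentery Itga2, with 0.75, all on the log2 scale. This count turned on single libraries. It was 5 without OM naive (Cdh3, Icam4, Itga3, Itgav and Itgb5), 3 without OM 24h (Cdh11, Cdh17 and Vcam1), 2 without MY 7d (Cdh17 and Itga2) and 1 without MY 24h (Itgae), and it stayed at 0 without OM 7d or MY naive. After rescaling to the same sum it was 3 (Cdh11, Itga2 and Itga3). The 3 libraries of a tissue are different times and not replicates, so this is a description of the libraries.

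Integrin adhesion sites are built inside the cell from a further set of proteins. Of 25 genes of integrin activation and adhesion sites 23 were expressed, and 2 were higher and 2 lower in OM naive than in MY naive, beside 8.18% and 8.05% of all genes, with a median of 0.20. In OM 24h 5 rose and 1 fell, beside 11.9% and 6.45%, and in OM 7d also 5 rose and 1 fell, beside 11.0% and 1.96%. The medians were 0.18 and -0.03. Bcar1, the adaptor p130Cas, had 0.664, 14.6 and 14.6 in the omentum and 0.385, 0.221 and 0.27 in the mesentery, and Parva, which links the kinase ILK to actin, had 1.26, 8.49 and 14 in the omentum and 0.207, 0.268 and 0.303 in the mesentery. Vcl, which encodes vinculin, had 11.7, 25.1 and 29 in the omentum and 5.96, 5.79 and 5.98 in the mesentery. The mesothelial and epithelial markers summed to 105, 992 and 978 in the omentum and 7.8, 10.2 and 8.91 in the mesentery. The fibroblast markers summed to 346, 222 and 1194 in the omentum and 2.34, 3.55 and 2.64 in the mesentery. The part of either list in the Bcar1, Parva and Vcl values was not tested. Apbb1ip, the RAP1 effector that recruits talin, had 45.2, 28.8 and 15.9 in the omentum and 47.2, 26.2 and 23.2 in the mesentery and Rasgrp2, which activates RAP1, 54.9, 23.7 and 30.1 in the omentum and 70.6, 45.4 and 47.1 in the mesentery. Fermt3, the kindlin of blood cells, and Tln1, the talin of leukocytes, were not chosen by rank and lay at 128 to 200.3 and 62 to 94 over the 6 libraries. Among those with an FPKM of at least 10 the naive libraries differed most in Flna, which encodes filamin A (0.95), and Ptk2b, the kinase PYK2 (-1.15), with Vcl at 0.87 and Sharpin, an integrin inhibitor, at -0.55.

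Matrix ligands of integrins stood apart between the tissues. Of the 14 genes on that list 12 were expressed, and 8 were higher and 1 lower in OM naive than in MY naive, beside 8.18% and 8.05% of all genes, with a median of 1.62. The fibroblast markers summed to 346 in OM naive and 2.34 in MY naive, and the mesothelial and epithelial markers to 105.5 and 7.8. Their part in the matrix gene values was not tested. Fn1, which encodes fibronectin, had 94.2, 279 and 57.6 in the omentum and 1.87, 21.4 and 2.99 in the mesentery, and Col1a1, a collagen chain on the fibroblast list too, 43.7, 30.4 and 77 in the omentum and 0.119, 0.132 and 0.11 in the mesentery. In OM 24h 8 rose and none fell, beside 11.9% and 6.45%, and in OM 7d 7 rose and none fell, beside 11.0% and 1.96%. Spp1, which encodes osteopontin, had 7.35, 219.6 and 41.9 in the omentum and 1.5, 2.67 and 1.66 in the mesentery, Thbs1, which encodes thrombospondin-1, had 6.08, 42.9 and 23 in the omentum and 0.602, 2.57 and 0.435 in the mesentery, and Col4a1, a basement membrane collagen, had 3.12, 17.2 and 15.9 in the omentum and 0.203, 0.188 and 0.116 in the mesentery. Mfge8, an RGD protein that bridges dying cells to alpha-v integrins, was the one gene lower in OM naive, with 17.7, 39.1 and 51.4 in the omentum and 43.4, 78.5 and 52.7 in the mesentery. In MY 24h 3 of the 12 rose, beside 2.80%, Fn1 by 2.96 among them.

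Catenins tie cadherins to actin. Of 10 genes for cadherin partners 9 were expressed, with 0 higher and 2 lower in OM naive than in MY naive, beside 8.18% and 8.05% of all genes, and a median of -0.08. In OM 24h 2 rose (Ctnnd1 and Jup) and none fell, beside 11.9% and 6.45%. In OM 7d 2 rose (Ctnnd1 and Ctnna2) and none fell, beside 11.0% and 1.96%, with Ctnna2 going from a listed 0 to 1.3. In MY 24h 1 rose, Ctnnd1 by 1.4, and none fell, beside 2.80% and 1.52%. Ctnnd1, which encodes p120-catenin and holds cadherins at the membrane, had 5.05, 23 and 18.6 in the omentum and 5.38, 15.8 and 7.01 in the mesentery, and Jup, which encodes plakoglobin, had 14.5, 32.9 and 21.9 in the omentum and 40.3, 73.6 and 36.8 in the mesentery. The core catenins Ctnnb1 and Ctnna1 lay at 65.6 to 81.3 and 26.3 to 42.8 over the 6 libraries.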

How the data were processed

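RNA of cells sorted as CD45+CD11b+F4/80+ from omentum and mesenteric adipose tissue was sequenced, 1 library for each tissue and time. The authors deposited 1 table of FPKM per gene for the 6 libraries. Their processing notes name FastQC 0.11.4, STAR 2.4.2a and the mm9 build, and the paper names Cufflinks for the FPKM. The table holds no counts, so no interval or limit for a 0 is given. Depth is only relative, estimated from the smallest values.

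From the table, log2(FPKM + 1) and its differences were computed (Python 3.11.15, pandas 2.3.3, numpy 2.4.6). The pseudocount was 1, genes had to reach an FPKM of 1 in some library, and the call was a difference of at least 1. With 1 library per condition no test was run, and the scripts were tested on simulated data. All 6 columns were mapped to a sample.

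Every expressed member was to be named, with all 6 values from an FPKM of 10, and 2 genes each way of each pathway list among those with an FPKM of at least 10. Members below 10 that were 2-fold apart are also given in full. The values of 1 member are not reported here, and it is counted in the totals. The members, lists and markers were chosen with earlier results of these data known. Positions come from GENCODE M1 on NCBIM37 (mm9) and promoters from RefSeq on GRCm38.p6. Other pseudocounts (0.1 and 5), filters, scalings and leaving out libraries were tried.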

Additional observations from a re-analysis of the deposited data

Results flagged for a closer look

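Among members at least 2-fold apart from naive in one tissue, 4 went the other way by at least 0.25 (log2) in the other tissue at 24 h. All are single libraries, and the difference between tissues was not tested. Cdh1, which encodes E-cadherin, was 1.39 above naive in the omentum and at -0.28 in the mesentery. Cdh2, which encodes N-cadherin, was at 1.36 and -0.28. Icam4 was at 1.44 and -0.38. Itgae, the alpha chain CD103, was at 1.54 and -0.53, and of the 4 it alone reached an FPKM of 1 in all 6 libraries.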

How the results depend on the processing

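The labels give no replicate numbers that could pair libraries, and a tissue comparison paired by time point was not run. As reported, 10 members were apart in OM naive against MY naive, 20 in OM 24h and 11 in OM 7d against OM naive, 1 in MY 24h and 2 in MY 7d against MY naive, and 0 between all omental and all mesenteric libraries. With a pseudocount of 0.1 these counts became 16 for the naive libraries, 2 in MY 24h, 5 in MY 7d and 4 between all libraries (Cdh11, Itga2, Itga3 and Itgb4). With a pseudocount of 5 they became 5 for the naive libraries, 10 in OM 24h, 5 in OM 7d and 0 in MY 7d. Among members with at least 1 FPKM in every library they were 6, 12, 5 and 1 for the naive libraries, OM 24h, OM 7d and MY 7d. Rescaling each library to a sum of 1000000 gave 3 between all libraries, and leaving out 1 library at a time gave 0 to 5. The split in OM 24h moved from 13 up and 7 down to 6 and 6 with the filter on every library, and that of the naive comparison from 4 up and 6 down to 3 and 2 with a pseudocount of 5. No member at least 2-fold apart changed direction under the other pseudocounts and scalings. Subfamily medians near 0 did. That of the beta2 chains went from 0.15 to -0.08 (naive libraries) and from 0.01 to -0.11 (MY 24h) on rescaling to the same sum, as did that of the other beta chains in MY 24h, from 0.002 to -0.02. That of the selectins changed sign with a pseudocount of 0.1 in each comparison but MY 7d, with a pseudocount of 5 in MY 7d, and on rescaling to the same sum in OM 7d. Low members depend on the pseudocount by construction. The table gives no counts, so what depth limits cannot be stated per gene.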
